A study of Mus musculus with 4 samples.

Results

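The genes described here encode the 5 subunits of the transcription factor NF-κB (*Nfkb1*, *Rel*, *Rela*, *Nfkb2* and *Relb*) and 5 proteins that hold it in check or that it induces as feedback (*Nfkbia*, *Nfkbib*, *Nfkbie*, *Nfkbiz* and *Tnfaip3*). They were chosen by symbol, and all 10 were found among the 23906 gene symbols of the expression tables. RNA was sequenced from LSK-SLAM cells, a flow cytometric fraction of mouse blood-forming tissue enriched for haematopoietic stem cells (HSCs). All donors were *BRE-GFP* transgenic mice on a C57BL/6 background, in which a BMP-responsive element drives GFP, so that GFP+ cells are BMP-activated at the time of sorting and GFP- cells are not. There were 4 groups with 1 library each: GFP+ and GFP- cells from the fetal liver (FL) at embryonic day 14, and GFP+ and GFP- cells from adult bone marrow (BM). All groups carried the transgene and none was treated with an agent. The reporter reads BMP signalling at the moment of isolation and not its history, the cells shown are from a single transgenic line, and neither the number of animals behind a library nor the age of the BM donors of these libraries was given in the sources used here.

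NF-κB is a family of dimeric transcription factors that respond to inflammatory cytokines, microbial products and members of the tumour necrosis factor family. In the canonical route, dimers of p50 (made from *Nfkb1*), RelA and c-Rel are kept in the cytoplasm by the IκB proteins until the IκB kinase marks these for destruction. In the non-canonical route, the precursor p100 (from *Nfkb2*), which itself acts as an IκB, is cut to p52 and released together with RelB. Several inhibitors are themselves NF-κB target genes, so that the route limits itself. In HSCs the pathway is known for its part in survival, in emergency blood formation and in the response to inflammation.

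The values are FPKM (sequenced fragments counted per unit of transcript length and of library depth), which allow levels to be compared between genes. Since each condition was 1 library, no difference between 2 libraries carries a replicate error or a test, and no spread is known against which neighbouring levels could be called alike or different. A gene was counted as higher or lower when its FPKM differed more than 2-fold, the cut-off of the study, among genes that reached 1 FPKM in 1 or both of the libraries compared. All 10 genes passed that filter in all 4 comparisons. Differences are given on the log2(FPKM + 1) scale, which understates the change of low genes.

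The libraries were not alike in other respects. Markers of LSK-SLAM cells were read from a list of 10, among them the stem cell genes *Kit* and *Procr*. Their summed FPKM was 1046 and 1029 in FL GFP+ and GFP-, and 444 and 773 in BM GFP+ and GFP-. Of the 10, 9 were more than 2-fold lower in BM GFP+ than in BM GFP- (19.6% of all genes), with *Procr* at 0 in BM GFP+. The exception was *Ly6a*, which encodes Sca1, a surface protein that LSK cells are sorted for. It had 19.7 and 46.3 FPKM in FL GFP+ and GFP-, and 286 and 146 in BM GFP+ and GFP-. *Ly6a* thus made up most of the BM GFP+ sum. A list of 17 granulocyte and macrophage genes summed to 797, 564, 67114 and 18589 in the same order, with 12 of 17 higher in BM GFP+ than in BM GFP- (21.1% of all genes). B cell genes (7) summed to 96.3, 43.5, 3464 and 951, T cell genes (8) to 12.9, 15.8, 196 and 61.0, and erythroid genes (10) to 3021, 3098, 40504 and 6488. The erythroid genes *Hbb-b1* and *Hbb-bs* had identical values in each library (14659 FPKM in BM GFP+), and both are counted in that sum. A list of 10 fetal genes summed to 548 and 194 in FL and to 8.43 and 7.60 in BM, as the tissue labels say, whereas 5 hepatocyte genes summed to 327 in FL GFP+ against 23.7 in FL GFP-. By the study's methods the sort excluded cells bearing CD3, B220, Ter119, Ly6C, CD48 and, in BM, CD11b. A list of 7 genes for these surface proteins summed to 127 and 77.8 in FL GFP+ and GFP-, and to 1677 and 819 in BM GFP+ and GFP-. Of the 7, 5 were higher in BM GFP+ than in BM GFP- (21.1% of all genes). One of the 7, *Ptprc*, encodes all forms of CD45 and not B220 alone. The part of these cell type signals in the NF-κB values was not tested, and in bulk RNA fewer cells of a type and less RNA per cell cannot be told apart. The FL GFP+ library detected the fewest genes, although by the study's methods it was not the one with the fewest mapped reads. Of 4945 genes at an FPKM of 1 to 10 in FL GFP-, 37.1% were under 0.5 in FL GFP+, against 10.3% of such genes in the reverse direction.

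Promoter sequences are shown first, because the feedback regulators are known to be under NF-κB control. Windows from 250 bases before to 50 after a transcription start were available from RefSeq (GRCm38.p6) for 7 of the 10 genes. The table lists 3 starts for *Nfkb2* and 2 for *Tnfaip3*, and the most upstream of those listed is shown. For *Nfkb2* and *Rela* the start shown lies inside the annotated gene (chr19:46300994-46312400 and chr19:5637442-5648134). The *Nfkb2* bases printed below lie wholly, and those of *Rela* partly, within the gene. The expression tables carry only symbols, so these positions come from that annotation alone. The 10-letter NF-κB consensus, searched on both strands with overlapping matches merged, was present for 5 of the 7 (*Rel*, *Nfkb2*, *Nfkbia*, *Nfkbie* and *Tnfaip3*) and not for *Rela* or *Nfkbib*. Of all 27025 genes in the table, 9.55% had a match in a window of that length. Below are the 130 bases before the start of 5 genes: 3 that were higher in both BM libraries than in the FL libraries and hold matches, *Nfkbie*, which holds a match but differed little, and *Rela*, which holds none. Each reads 5′ to 3′ on the gene's own strand, capitals mark the consensus, and match positions give its first base, the last base before the start being -1.
Nfkb2, chr19:46304607-46304736, plus strand, matches at -39 and -11: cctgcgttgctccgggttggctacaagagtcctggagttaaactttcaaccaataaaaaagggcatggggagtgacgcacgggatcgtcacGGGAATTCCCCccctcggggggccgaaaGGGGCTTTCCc
Nfkbia, chr12:55492648-55492777, minus strand, match at -29: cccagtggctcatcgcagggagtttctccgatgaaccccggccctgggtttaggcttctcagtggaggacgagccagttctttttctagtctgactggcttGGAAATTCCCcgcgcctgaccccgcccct
Tnfaip3, chr10:19015411-19015540, minus strand, matches at -125 and -12: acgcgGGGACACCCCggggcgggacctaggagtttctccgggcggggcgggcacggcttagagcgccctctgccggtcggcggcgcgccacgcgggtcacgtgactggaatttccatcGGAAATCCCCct
Nfkbie, chr17:45555570-45555699, plus strand, match at -106: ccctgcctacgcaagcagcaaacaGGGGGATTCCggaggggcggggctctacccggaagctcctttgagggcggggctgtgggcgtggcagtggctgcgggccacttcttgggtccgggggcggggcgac
Rela, chr19:5637411-5637540, plus strand, no match: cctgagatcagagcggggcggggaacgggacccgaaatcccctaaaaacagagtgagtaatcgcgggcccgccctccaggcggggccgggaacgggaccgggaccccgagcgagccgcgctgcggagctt
A match describes these letters only and is not evidence of binding in these cells.

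The canonical subunits were present in all 4 libraries. *Rela*, the main activating subunit, was the highest subunit in 3 of them, with 63.0 and 44.2 FPKM in FL GFP+ and GFP-, and 84.7 and 39.2 in BM GFP+ and GFP-. In BM GFP- it lay just under *Nfkb1*. *Nfkb1*, whose p50 product lacks an activation domain and can repress as a homodimer, had 27.3 and 30.0 FPKM in FL GFP+ and GFP-, and 17.5 and 42.0 in BM GFP+ and GFP-. Its level in BM GFP+ was 2.40-fold below that in BM GFP-, while the FL fractions differed by 1.10-fold. *Rel*, which encodes c-Rel and is known for its role in lymphocytes, had 8.70 and 5.86 FPKM in FL GFP+ and GFP- and 23.9 and 6.72 in BM GFP+ and GFP-. The BM GFP+ library alone stood high for *Rel*, 3.55-fold above BM GFP-. *Nfkb1* and *Rel* thus lay on opposite sides of the 2-fold cut-off in BM.

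The non-canonical subunits were both past 2-fold higher in BM than in FL in each fraction. *Nfkb2* had 0.210 and 2.60 FPKM in FL GFP+ and GFP-, and 47.0 and 12.5 in BM GFP+ and GFP-. Both BM values lay above both FL values, by 1.91 on the log2(FPKM + 1) scale between the GFP- libraries and by 5.31 between the GFP+ libraries, the second resting on an FL value under 1 FPKM. *Relb*, the partner of p52, had 16.6 and 10.02 FPKM in FL GFP+ and GFP-, and 40.6 and 22.0 in BM GFP+ and GFP-. It was 2.45-fold higher in BM than in FL in the GFP+ libraries and 2.19-fold in the GFP- libraries, and in each tissue the GFP+ library was the higher one, by 1.65-fold in FL and 1.85-fold in BM.

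**Figure D1:**
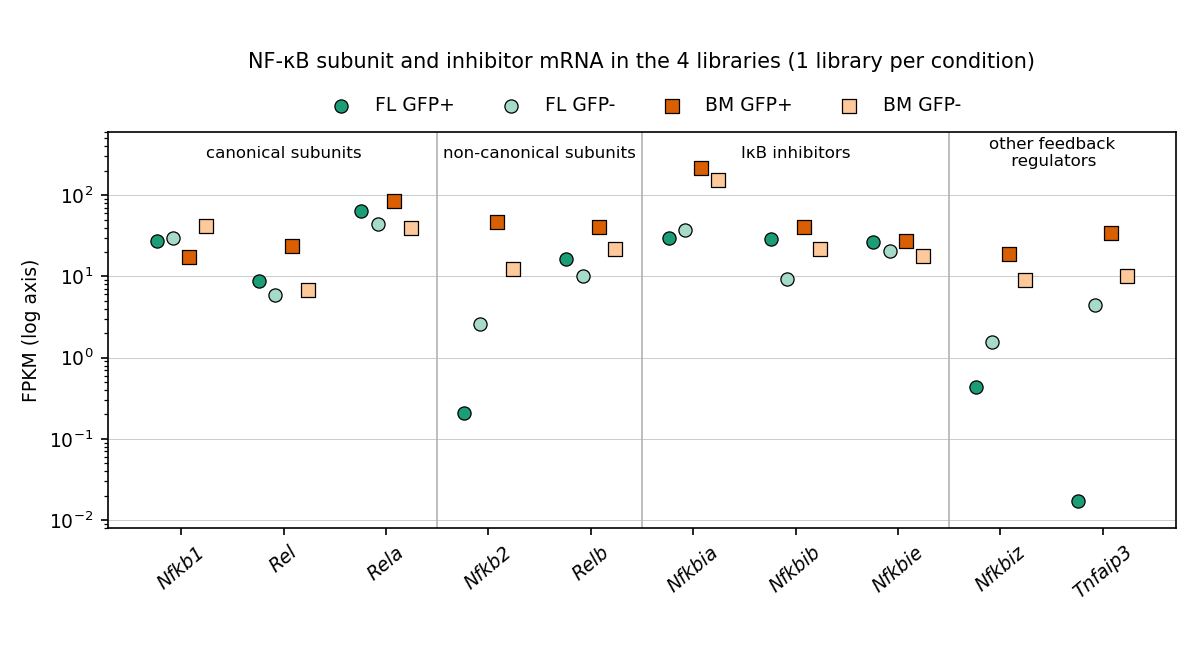
FPKM on a log axis of the 10 NF-κB genes, grouped by role, in FL GFP+, FL GFP-, BM GFP+ and BM GFP- (1 point per library, no replicates, so no error bars). *Nfkbia* reaches 215.6 and 153.8 FPKM in BM against 29.6 and 37.4 in FL, whereas *Nfkb2*, *Nfkbiz* and *Tnfaip3* fall below 1 FPKM in FL GFP+ only.

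Among the IκB inhibitors, *Nfkbia*, which encodes IκBα, the fast-acting feedback inhibitor, had 29.6 and 37.4 FPKM in FL GFP+ and GFP-, and 215.6 and 153.8 in BM GFP+ and GFP-. It was 7.27-fold higher in BM than in FL in the GFP+ libraries and 4.11-fold in the GFP- libraries, and the fractions of a tissue differed by less than 2-fold. *Nfkbib*, which encodes the slower IκBβ, had 28.9 and 9.28 FPKM in FL GFP+ and GFP- and 40.2 and 22.0 in BM GFP+ and GFP-. Its FL GFP- value stood lowest, 3.11-fold below FL GFP+. *Nfkbie*, which encodes IκBε, had 26.3 and 20.8 FPKM in FL and 27.2 and 18.0 in BM, in the same order, with no comparison past 2-fold. With equal FPKM totals its difference between BM and FL was -0.56 (GFP+) and -0.62 (GFP-) on the log2 scale.

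The remaining feedback regulators were low in FL. *Nfkbiz* encodes the nuclear protein IκBζ, which is induced by NF-κB and at some promoters acts as a co-activator rather than an inhibitor. It had 0.438 and 1.57 FPKM in FL GFP+ and GFP-, and 18.97 and 8.94 in BM GFP+ and GFP-. *Tnfaip3* encodes A20, a ubiquitin-editing enzyme that shuts down signalling upstream of the IκB kinase. It had 0.0171 and 4.45 FPKM in FL GFP+ and GFP-, and 34.6 and 10.1 in BM GFP+ and GFP-. For both genes the order was BM GFP+, BM GFP-, FL GFP- and FL GFP+, the order that *Nfkb2* also had. No fold is given against the FL GFP+ values of these 3 genes, since all were below 1 FPKM in the library with the fewest genes detected and the number of reads behind an FPKM is not in the files.

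The comparison of the GFP fractions addresses whether BMP-activated and non-BMP-activated cells differ in the pathway. In FL, 1 of the 10 genes was more than 2-fold higher in GFP+ (*Nfkbib*), where 17.9% of all genes tested were, and 3 were lower (*Nfkb2*, *Nfkbiz* and *Tnfaip3*), where 26.8% of all genes were. The 3 lower genes are those under 1 FPKM in FL GFP+. They passed the filter through FL GFP- alone and could be called only lower. Of the 7 genes at 1 FPKM or more in both FL libraries, 1 was higher and 0 were lower. Of all 9198 genes at that level in both, 1596 were higher and 968 lower. The median difference of the 10 genes was 0.09 on the log2 scale, against 0.05 for all genes. In BM, 5 of 10 were higher in GFP+ (*Rel*, *Rela*, *Nfkb2*, *Nfkbiz* and *Tnfaip3*; 21.1% of all genes) and 1 was lower (*Nfkb1*; 19.6%), with a median of 0.93 against 0.12 for all genes. The BM GFP+ library is also the one with the highest granulocyte, B cell and T cell sums given above. When the libraries were rescaled to equal FPKM totals, which lowers every gene of BM GFP+ by 0.46 on the log2 scale relative to BM GFP-, 3 of the 5 remained past 2-fold (*Rel*, *Nfkb2* and *Tnfaip3*) and *Nfkb1* stayed lower. Under that scaling 13.1% of all genes were higher and 27.7% lower. None of the 10 genes was past 2-fold in the same direction in both tissues, whether higher (3.45% of all genes) or lower in GFP+ (6.48%).

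**Figure D2:**
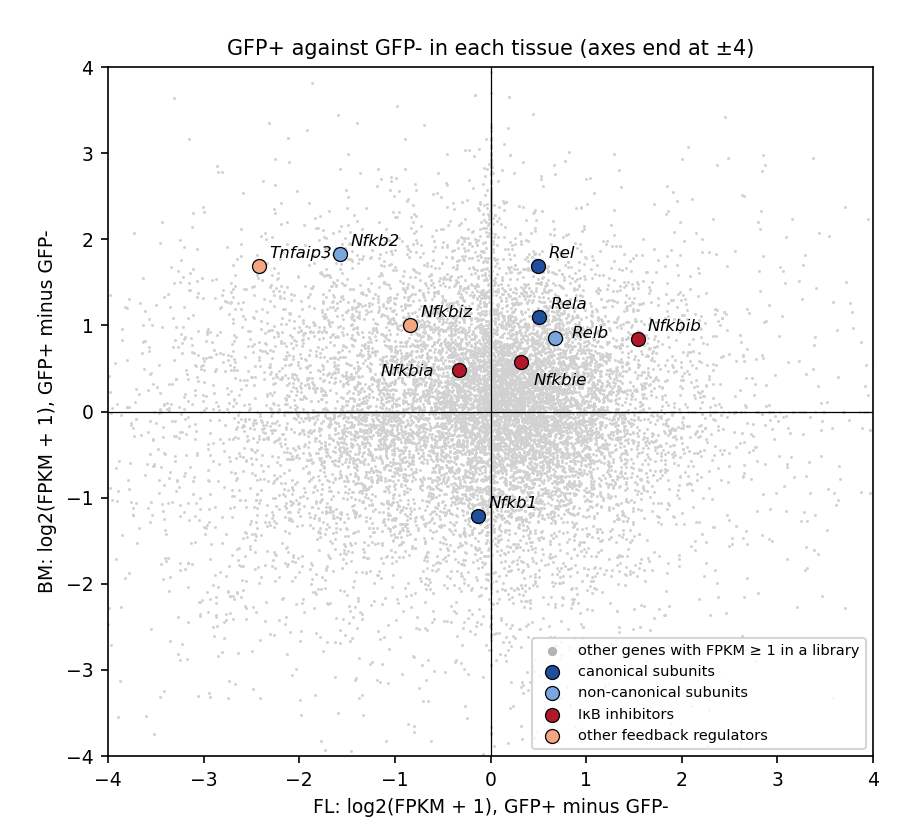
Difference between GFP+ and GFP- on the log2(FPKM + 1) scale in FL (horizontal axis) and in BM (vertical axis) for the 10 NF-κB genes, coloured by role, over all genes that reached 1 FPKM in a library (grey). *Tnfaip3*, *Nfkb2*, *Nfkbiz* and *Nfkbia* lie at the upper left (lower in FL GFP+, higher in BM GFP+), whereas *Nfkb1* lies near 0 in FL and at -1.22 in BM.

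Side by side, the fraction difference of *Tnfaip3* was -2.42 in FL and 1.69 in BM, that of *Nfkb2* -1.57 and 1.83, that of *Nfkbiz* -0.84 and 1.01 and that of *Nfkbia* -0.32 and 0.48. These 4 genes had opposite signs in the tissues, although with equal FPKM totals the BM difference of *Nfkbia* was only 0.03. *Rel* (0.50 and 1.69), *Rela* (0.50 and 1.09), *Relb* (0.67 and 0.86), *Nfkbib* (1.54 and 0.84) and *Nfkbie* (0.32 and 0.57) were higher in GFP+ in both tissues, although none passed 2-fold in both. *Nfkb1* was the only one with a lower value in GFP+ in both (-0.13 and -1.22). A model over both tissues has the tissues as the only repeats of this difference, so genes with opposite signs could hardly pass it. In a limma model with tissue and GFP fraction as additive terms, fitted across 11707 genes and leaving 1 residual degree of freedom, 0 of the 10 genes had an adjusted p under 0.05 for the GFP fraction (smallest adjusted p = 0.84) and 0 had an unadjusted p under 0.05, while 0.111% of all genes passed the adjusted threshold and 732 genes the unadjusted one.

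The comparison of the tissues gave higher values in BM. In the GFP+ libraries, 6 of 10 genes were more than 2-fold higher in BM than in FL (*Rel*, *Nfkb2*, *Relb*, *Nfkbia*, *Nfkbiz* and *Tnfaip3*; 33.6% of all genes) and 0 were lower (25.1%). *Nfkb2*, *Nfkbiz* and *Tnfaip3* were below 1 FPKM in FL GFP+, passed the filter through BM GFP+ alone and could be called only higher. In the GFP- libraries, where all 10 genes reached 1 FPKM in both, 6 were higher (*Nfkb2*, *Relb*, *Nfkbia*, *Nfkbib*, *Nfkbiz* and *Tnfaip3*; 18.6%) and 0 were lower (19.3%). The medians were 1.30 and 1.04 on the log2 scale, against 0.15 and 0.04 for all genes. *Nfkb2*, *Relb*, *Nfkbia*, *Nfkbiz* and *Tnfaip3*, that is both non-canonical subunits and 3 of the 5 inhibitors and feedback regulators, were higher in both fractions, where 11.9% of all genes were, and 0 were lower in both (7.7%). The GFP- comparison does not use the BM GFP+ library, and these 5 genes are past 2-fold in it by definition. BM GFP- has mature cell signals of its own, with the sums given above. Equal FPKM totals lower every BM gene by 0.63 (GFP+) and 0.43 (GFP-) on the log2 scale relative to FL, and *Nfkb2*, *Nfkbia* and *Nfkbiz* then remained past 2-fold in both fractions, while the GFP+ comparison had 4 higher and 1 lower (*Nfkb1*). Under that scaling 25.1% of all genes were higher and 38.1% lower in BM in the GFP+ libraries, and 13.1% and 29.9% in the GFP- libraries.

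In the limma model, *Nfkbia* was higher in BM by 2.42 ± 0.38 on the log2 scale (SE, 4 libraries; limma with Benjamini-Hochberg adjustment, adjusted p = 0.0151). It was higher in both fractions, and was the only one of the 10 genes past the threshold, which 2.46% of all genes passed. That call was lost in each of the 4 other settings of the model, where the smallest adjusted p among the 10 genes (limma) was 0.0612 to 0.707. *Nfkb2* differed by 3.61 ± 1.06 (SE; limma adjusted p = 0.133), *Nfkbiz* by 2.87 ± 0.95 (SE; limma adjusted p = 0.172) and *Tnfaip3* by 3.07 ± 1.14 (SE; limma adjusted p = 0.213), and none of the 3 passed the threshold. The other 6 genes ranged from -0.08 (*Nfkbie*) to 1.15 (*Relb*). The model takes the GFP fractions as repeats of the tissue difference. Its SE and p therefore rest on their disagreement and on other genes, and measure no replicate spread. A list of 16 immediate-early genes, which respond within minutes to many stimuli including cell isolation, moved with tissue as well. Their summed FPKM was 170 and 180 in FL GFP+ and GFP- against 3468 and 2907 in BM GFP+ and GFP-. In BM, 16 of 16 (GFP+) and 15 of 16 (GFP-) were higher, where 33.6% and 18.6% of all genes were. The part of isolation or of the mature cell signals in the tissue difference was not tested.

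Ratios within a library do not depend on how the libraries were scaled to each other. The summed FPKM of the inhibitors *Nfkbia*, *Nfkbib* and *Nfkbie* per summed FPKM of the canonical subunits *Nfkb1*, *Rel* and *Rela* was 0.857 and 0.843 in FL GFP+ and GFP-, and 2.24 and 2.204 in BM GFP+ and GFP-. The ratio was 2.62-fold higher in BM than in FL in the GFP+ libraries and 2.61-fold in the GFP- libraries, while the fractions of each tissue differed by 1.02-fold. Taken from the mean log2(FPKM + 1) of the same genes, which weights them equally, the ratio was 1.12 and 0.964 in FL GFP+ and GFP-, and 1.85 and 1.72 in BM GFP+ and GFP-, and the tissue folds were 1.65 (GFP+) and 1.78 (GFP-). In FL the GFP+ sums exceeded the GFP- sums by 1.24-fold for the canonical subunits and 1.26-fold for the inhibitors. In BM they did so by 1.44-fold and 1.46-fold. The single genes in these sums did not move together. In BM GFP+ *Nfkb1* was 2.40-fold lower and *Rel* 3.55-fold higher than in BM GFP-. In FL GFP+ *Nfkbia* was 1.26-fold lower and *Nfkbib* 3.11-fold higher than in FL GFP-. Between tissues the canonical sum was 1.27-fold (GFP+) and 1.10-fold (GFP-) higher in BM, and the inhibitor sum 3.34-fold and 2.87-fold. Unlike the ratios, these folds of sums depend on scaling and hold for the deposited values only. Equal FPKM totals lower every GFP+ gene relative to GFP- by 0.26 (FL) and 0.46 (BM) on the log2 scale. They lower every BM gene relative to FL by 0.63 (GFP+) and 0.43 (GFP-).

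*Nfkbia* carried that difference. It accounted for 35.0% and 55.4% of the inhibitor FPKM in FL GFP+ and GFP-, and for 76.2% and 79.4% in BM GFP+ and GFP-. Without it the ratio was 0.557 and 0.376 in FL GFP+ and GFP- and 0.535 and 0.455 in BM GFP+ and GFP-, and the tissues no longer separated. GFP+ then exceeded GFP- by 1.48-fold in FL and 1.18-fold in BM. *Nfkbia* per *Rela* was 0.470 and 0.845 in FL and 2.54 and 3.93 in BM, GFP+ before GFP-. On this measure the GFP- library was the higher one in both tissues, by 1.80-fold in FL and 1.54-fold in BM.

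The non-canonical share, *Nfkb2* and *Relb* as a percentage of the FPKM of the 5 subunits, was 14.5% and 13.6% in FL GFP+ and GFP-, and 41.0% and 28.2% in BM GFP+ and GFP-. It was 2.83-fold higher in BM in the GFP+ libraries and 2.07-fold in the GFP- libraries. In FL *Relb* alone held 14.3% (GFP+) and 10.8% (GFP-) of the subunit FPKM, and *Nfkb2* made up 0.766% (GFP+) and 7.99% (GFP-) of the p100 and p105 precursor FPKM (*Nfkb1* plus *Nfkb2*). In BM it made up 72.9% in GFP+ and 22.9% in GFP-, so that BM GFP+ was the only library with more *Nfkb2* than *Nfkb1*. *Relb* as a share of *Rela* plus *Relb* ran from 18.5% in FL GFP- and 20.8% in FL GFP+ to 32.4% in BM GFP+ and 35.9% in BM GFP-. Both BM values lay above both FL values.

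**Figure D3:**
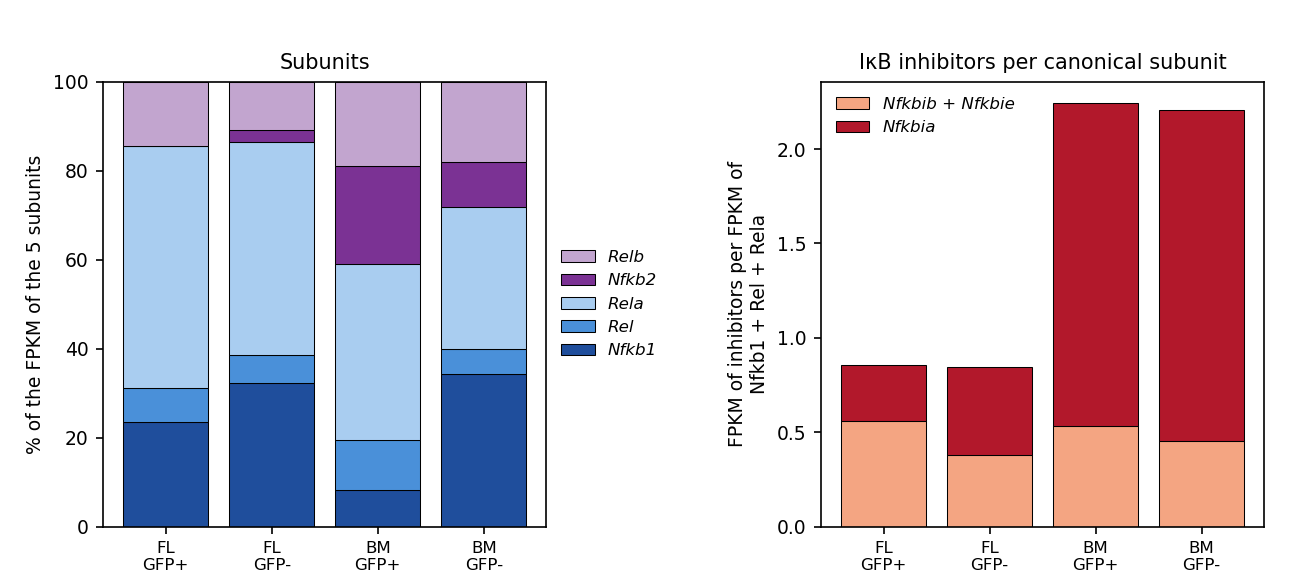
Left, the share of each subunit in the FPKM of the 5 subunits in each library (stacked bars, %). Right, FPKM of *Nfkbia* and of *Nfkbib* plus *Nfkbie* per FPKM of the canonical subunits (stacked bars from 0). The right-hand bars end at 0.857, 0.843, 2.24 and 2.204, and their lower parts without *Nfkbia* lie between 0.376 and 0.557 in all 4 libraries.

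The wider pathway was read from 5 lists with 90 genes in the tables (9 ligands, 17 receptors, 26 adaptors and kinases, 13 other IκB-like or negative regulators, 25 target genes). In FL, of the 66 that passed the filter, 12 were higher and 20 lower in GFP+, or 18.2% and 30.3%, near the 17.9% and 26.8% of all genes, and the median difference was -0.07. In BM, 35 of 81 were higher and 6 lower in GFP+, or 43.2% and 7.41%, against 21.1% and 19.6% of all genes. With equal FPKM totals 23 were higher and 11 lower of 78, or 29.5% and 14.1%, against 13.1% and 27.7% of all genes. BM exceeded FL for 47 of 81 genes, with 10 lower, in the GFP+ libraries (58.0% and 12.3%, against 33.6% and 25.1% of all genes) and for 28 of 78, with 7 lower, in the GFP- libraries (35.9% and 8.97%, against 18.6% and 19.3%). With equal totals these became 37 higher and 19 lower of 78 (47.4% and 24.4%, against 25.1% and 38.1%), and 22 higher and 17 lower of 79 (27.8% and 21.5%, against 13.1% and 29.9%).

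Many of these genes were low. A gene that reached 1 FPKM in 1 of the libraries compared could be called in that direction only, which held for 31 of the 47 genes higher in BM GFP+ than in FL GFP+ and for 14 of the 28 in the GFP- libraries. Among the 60 pathway genes at 1 FPKM or more in both GFP- libraries, 14 were higher in BM and 4 lower. Of all 10355 genes at that level in both, 1238 were higher and 1409 lower. Among the 73 pathway genes at 1 FPKM or more in both BM libraries, 28 were higher in GFP+ and 5 lower. Of all 10095 genes at that level in both, 1846 were higher and 1039 lower. The list counts below are descriptions and are subject to the same limit.

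Only 3 of the 9 ligands passed the filter in the FL comparison. *Ltb*, a subunit of lymphotoxin, a ligand that activates the non-canonical route, was the most abundant, with 362 and 248 FPKM in FL GFP+ and GFP- and 828 and 282 in BM GFP+ and GFP-. *Il1b* was listed at 0 in both FL libraries and had 24.7 and 6.18 FPKM in BM GFP+ and GFP-. In BM 5 of the 7 ligands that passed were higher in GFP+ and 0 lower (21.1% and 19.6% of all genes). Of these 5, 1 passed through BM GFP+ alone. *Tnfsf14* (LIGHT) was past 2-fold lower in BM than in FL in both fractions, with 25.9 and 17.5 FPKM in FL and 9.94 and 7.98 in BM, GFP+ before GFP-.

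Of the receptors, *Tnfrsf1a*, which binds tumour necrosis factor, had 98.3 and 58.3 FPKM in FL GFP+ and GFP- and 44.9 and 58.3 in BM. *Cd40* and *Tnfrsf13c* (the BAFF receptor), both inducers of the non-canonical route in B cells, behaved otherwise. *Cd40* was listed at 0 in FL and had 97.2 FPKM in BM GFP+ and 10.02 in BM GFP-, while *Tnfrsf13c* had 0.186 and 7.39 in FL and 98.2 and 41.6 in BM. Both were highest in BM GFP+, which also had the highest B cell sum although the sort excluded cells bearing B220, and the part of B cells in these values was not tested. *Tlr2*, a sensor of bacterial lipoproteins, was higher in GFP+ in both tissues (21.4 against 7.36 FPKM in FL, 23.6 against 10.9 in BM).

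Of the adaptors and kinases, 3 of 26 were higher and 4 lower in BM in the GFP- libraries (18.6% and 19.3% of all genes), and 8 of 25 were higher and 5 lower in the GFP+ libraries (33.6% and 25.1%), none of which stood above all genes. *Ikbkb*, the catalytic kinase of the canonical route, had 43.1 and 14.8 FPKM in FL GFP+ and GFP- and 75.7 and 26.4 in BM GFP+ and GFP-, a difference of 1.48 in FL and 1.49 in BM. *Traf1*, an adaptor and an NF-κB target, was also higher in GFP+ in both (13.6 against 2.52, and 15.6 against 6.33 FPKM). The members of the linear ubiquitin ligase *Rbck1* and *Sharpin* did not follow each other. *Rbck1* was highest in FL GFP+ at 143 FPKM (87.5 in BM GFP+) and *Sharpin* in BM GFP+ at 126 (30.5 in FL GFP+). *Myd88*, the adaptor of Toll-like receptors, stayed between 37.9 and 72.5 FPKM.

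Among the other negative regulators, *Tnip3*, an A20-binding protein, was lower in GFP+ in both tissues, listed at 0 against 5.71 FPKM in FL and at 1.85 against 11.1 in BM. *Tnip2*, another A20-binding protein, had 22.4, 26.5 and 26.8 FPKM in FL GFP+, BM GFP+ and BM GFP- but 4.05 in FL GFP-. *Tax1bp1*, an adaptor for A20, was past 2-fold higher in BM than in FL in the GFP+ libraries (93.5 against 32.5 FPKM). In the GFP- libraries it was not past 2-fold (118 against 60.3). *Nfkbil1*, named for its likeness to the IκB genes, was low in BM GFP+ at 4.82 FPKM and between 23.0 and 25.3 elsewhere.

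Of the 25 target genes, 18 passed the filter in the GFP- libraries, of which 13 were higher in BM and 0 lower (18.6% and 19.3% of all genes). Of these 13, 6 passed through BM GFP- alone. At 1 FPKM or more in both libraries, 7 of 12 target genes were higher, and 1238 of 10355 of all genes. In BM, 22 passed, of which 12 were higher in GFP+ and 0 lower (21.1% and 19.6% of all genes). Here 4 of the 12 passed through BM GFP+ alone. At 1 FPKM or more in both libraries, 8 of 18 target genes were higher, and 1846 of 10095 of all genes. *Ccl5*, a chemokine of T cells and other leukocytes, was listed at 0 in FL and had 237 and 42.6 FPKM in BM GFP+ and GFP-. *Ccl4* had 9.98 and 14.04 FPKM in FL and 73.2 and 76.2 in BM. *Irf1* had 75.9 FPKM in FL GFP+ and 23.8 in FL GFP-, against 56.0 and 64.7 in BM. *Vcam1*, an adhesion molecule that is also in the macrophage list used here, was higher in GFP+ in both tissues (5.56 against 0.841, and 27.3 against 4.77 FPKM).

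**Figure D4:**
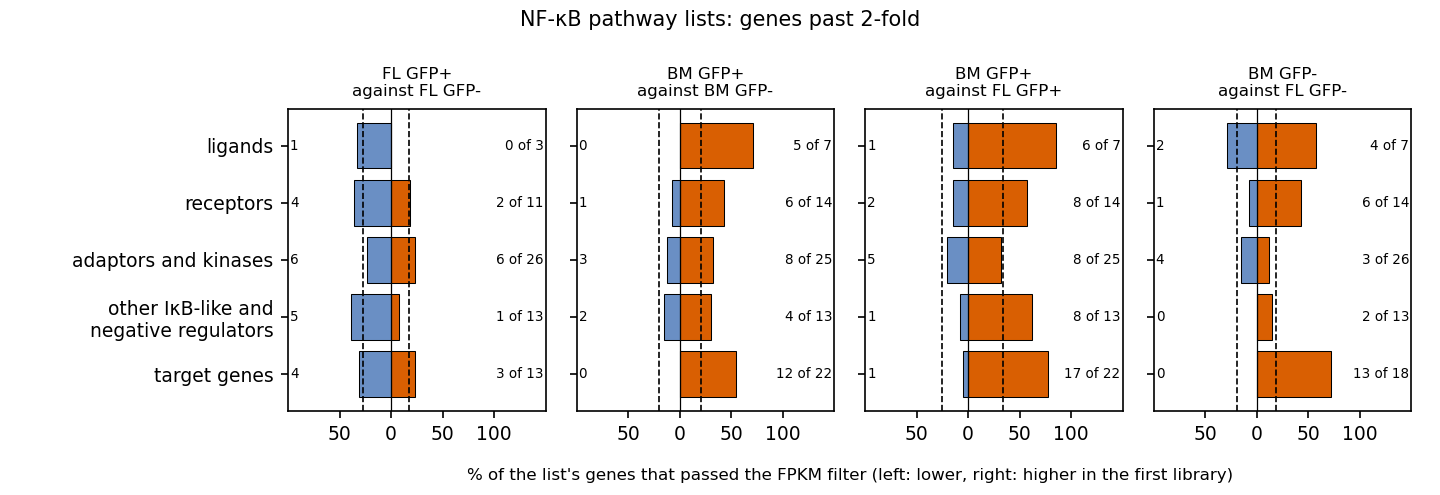
Percentage of each pathway list's genes past 2-fold in each comparison, higher in the first-named library to the right and lower to the left, with the counts printed and dashed lines at the percentage of all genes. Target genes reach 13 of 18 higher in BM GFP- than in FL GFP-, against a dashed line at 18.6%, and 6 of the 13 passed the filter through BM GFP- alone. Adaptors and kinases reach 3 of 26.

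The pattern of each gene over the 4 libraries was compared by the Euclidean distance of its centred log2(FPKM + 1) values. *Rela* and *Nfkbie* were the closest pair among the 10 (distance 0.439), followed by *Nfkbia* and *Nfkbiz* (0.691) and by *Relb* and *Nfkbib* (0.699). *Nfkb2* and *Tnfaip3* lay 0.810 apart. Among 6136 genes at 5 FPKM or more in all libraries, the 3 nearest to *Nfkb1* were *Lxn* (0.0981), *Cenpo* (0.116) and *Zscan21* (0.119), and 200 genes lay within 0.5 of it. The 3 nearest to *Nfkbia* were *Hist1h1c* (0.226), *Dusp2* (0.361) and *Lamtor4* (0.396), with 19 genes within 0.5. With 4 libraries these distances describe likeness of level only.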

How the data were processed

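RNA of LSK-SLAM cells was prepared by the SMARTER protocol. The authors mapped the reads with TopHat, computed FPKM with Cufflinks 2.2.1 (submitters' processing notes) and deposited FPKM normalized across all libraries with Cuffnorm, by its geometric method and with fragment-bias and multi-read correction. The genome build is given as mm9 in the study's methods and as mm10 in the notes. The tables hold symbols and FPKM only, so the reads behind a value, and hence the precision of a single FPKM, are unknown, and 1 library per condition allows no replicate error. GFP itself has no row, so the sort could not be checked by its transcript.

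From these values were computed 2-fold calls, differences on log2(FPKM + 1) and within-library ratios (Python 3.11.15, pandas 2.3.3, numpy 2.4.6). An additive model of tissue and GFP fraction was fitted with limma 3.58.1 in R 4.3.3 (trend, Benjamini-Hochberg) on genes reaching 1 FPKM in 2 or more libraries, with 1 residual degree of freedom per gene and 7.52 prior degrees of freedom that limma borrowed across genes, so its p-values rest mostly on the spread of other genes. FPKM are not counts, so no count model was used. Scripts were tested on simulated data. Alternatives were a pseudocount of 0.1, no filter, folds of 1.5 and 4, 3 rescalings, no trend, and other gene sets in the ratios.

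All 10 genes are described. Of each pathway list, the text names at most the 3 genes with the highest FPKM and at most 4 past 2-fold in the same direction in both tissues. The genes and lists were chosen with earlier results of these data known. Sequences and positions are from RefSeq, GRCm38.p6. For *Nfkb1*, *Relb* and *Nfkbiz* no promoter sequence was used here.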

Additional observations from a re-analysis of the deposited data

Results flagged for a closer look

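For 4 genes the difference between GFP+ and GFP- had opposite signs in BM and FL. The BM difference exceeded the FL difference, on the log2(FPKM + 1) scale, by 4.11 for *Tnfaip3*, 3.41 for *Nfkb2*, 1.84 for *Nfkbiz* and 0.81 for *Nfkbia*. The first 3 genes were below 1 FPKM in FL GFP+. The BM difference of *Nfkbia* was 0.48 as deposited and 0.03 with equal FPKM totals.

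For 3 genes the difference between BM and FL had opposite signs in the GFP fractions. The GFP+ difference minus the GFP- difference was -1.08 for *Nfkb1*, 0.59 for *Rela* and 0.25 for *Nfkbie*. With equal FPKM totals *Rela* and *Nfkbie* were lower in BM in both fractions. With 1 library per condition none of these 7 differences was tested.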

How the results depend on the processing

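With equal FPKM totals, with or without short RNA genes, the 10 genes had 3 higher in BM GFP+ than in BM GFP-, 3 higher in BM GFP- than in FL GFP-, 1 lower in BM GFP+ than in FL GFP+ (*Nfkb1*) and 3 higher in BM in both fractions. The last rescalings, and the GFP- libraries alone (6 higher), were added after seeing the data. The shares of all genes were taken at 2-fold only. The counts at 1.5-fold and 4-fold, for the 10 genes and the pathway lists, therefore cannot be read against them. At 1.5-fold, 2 were higher in FL GFP+, 8 higher in BM GFP+ than in BM GFP- and 1 lower in BM GFP+ than in FL GFP+. At 4-fold, 0 were higher in FL GFP+, 0 higher and 0 lower in BM GFP+ than in BM GFP-, and 3 higher in BM GFP- than in FL GFP-. For the pathway lists, 1.5-fold gave 21 higher in FL GFP+, 10 lower in BM GFP+ than in BM GFP- and 16 lower in BM GFP- than in FL GFP-, and 4-fold gave 5 higher in FL GFP+, 13 higher and 3 lower in BM GFP+ than in BM GFP-, 6 lower in BM GFP+ than in FL GFP+ and 2 lower in BM GFP- than in FL GFP-. Equal totals gave 23 higher and 11 lower in BM GFP+ than in BM GFP-, 19 lower in BM GFP+ than in FL GFP+ and 17 lower in BM GFP- than in FL GFP-.

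The limma call of *Nfkbia* between tissues was lost, leaving 0 genes, without the trend, with a pseudocount of 0.1, with no filter and with equal totals. Inhibitor to canonical ratios were 0.557, 0.376, 0.535 and 0.455 without *Nfkbia* (FL GFP+, FL GFP-, BM GFP+, BM GFP-), and 0.470 in FL GFP+ and 3.93 in BM GFP- as *Nfkbia* per *Rela*. The share of *Nfkb2* against *Nfkb1* alone was 0.766%, 7.99% and 72.9% in FL GFP+, FL GFP- and BM GFP+. Apart from the settings that define a stricter or looser fold or another gene set, the cause of these changes was not tested. Of 160 differences of the 10 genes under the alternatives, 136 stayed within 0.5 log2 units and 8 changed sign, all of them under equal totals and of genes not past 2-fold (*Rela*, *Nfkbib* and *Nfkbie* in BM GFP+ against FL GFP+, *Rel* in BM GFP- against FL GFP-). No replicate block could be fitted, since each condition was 1 library; the limma model already compares the fractions within each tissue. The reads behind the low values of *Nfkb2*, *Nfkbiz* and *Tnfaip3* in FL GFP+ are unknown, and the part of detection in them was not tested.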
